A study of Mus musculus with 23 samples.

Results

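Myelin in the mouse hippocampus was followed through 30 genes of myelin and of mature oligodendrocytes, out of the 39017 genes in each of the study's tables. The members were chosen by name, as genes known for myelin or for the mature cell that makes it, and read from the rows of both tables that carry their symbols. Earlier results of these data were known when they were chosen, so their shares below describe the list and do not test it. All 30 were found and all 30 passed the filter on low values in every comparison. After chronic social defeat stress (CSDS) in wild-type (WT) mice, 8 of the 30 (26.7%) fell and 0 rose, where 12.5% of all genes tested fell and 9.88% rose. Mog, Mag and Cnp differed by less than 0.05 on the log2 scale and were not called. In mice labelled as knockout (KO) of Nrsn2, 3 of the 30 (10.0%) fell after CSDS and 0 rose, a share near the 8.88% of all genes that fell. Both counts leave out 3 libraries whose labels conflict, and the counts depend on how these are read. Added as their treatment field reads, 1 gene was called in WT and 0 under the knockout label by limma. Added as their title reads, 9 were called in WT, 8 lower and 1 higher, and 5 under the knockout label, all lower.

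Oligodendrocytes wrap axons in many turns of membrane, the myelin sheath, which speeds conduction and lets the glial cell feed the axon. The sheath holds proteins that press its membranes together, proteins of its outer and inner faces, a lipid fraction rich in galactolipids, and gap junctions. A small set of transcription factors switches these genes on as the cell matures and keeps them on afterwards. The hippocampus is mostly grey matter, and its myelin lies in the alveus, in the fimbria and on scattered axons, among them those of interneurons.

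The study measured poly(A) RNA from hippocampi of mice labelled WT or Nrsn2 knockout, at rest or after CSDS. Under CSDS a mouse spent 5 min a day with an aggressive CD-1 mouse, another one each time over 10 days, and stayed behind a divider from it between sessions. The groups compared were KO-labelled CSDS, KO-labelled control, WT CSDS and WT control, with 5 libraries each, 20 of the 23 libraries in all. The other 3, WT 9B and KO-labelled 10B and 11, carry a control title and a CSDS treatment field and stand outside the comparisons. The series' design text speaks of 5 control and 6 to 7 CSDS samples, which goes with the treatment field, while the authors' deposited control means include them, which goes with the title. The labels used here name no allele, strain, age or sex. They also do not say that each library is its own animal, so a p-value measures only the spread among these libraries, which may be technical. Levels are RPKM, which divides reads by gene length and by library size. Changes are differences of log2(RPKM + 0.5), with the SE, and understate the change of low genes. A change was called where limma's two-sided test had a Benjamini-Hochberg adjusted p under 0.05 over all genes tested.

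Several facts of the whole series touch the values below. By an estimate from the RPKM steps, the libraries held 25.62 to 55.61 M reads. Nrsn2 itself was not lower under the knockout label, at 34.1 ± 2.34 RPKM in KO-labelled CSDS, 31.2 ± 1.93 in KO-labelled control, 29.7 ± 2.55 in WT CSDS and 29.1 ± 2.42 in WT control (SD, n = 5 each), so the genotype is named by its label. Xist was high and Ddx3y low in the libraries named control 10, with 48.2 and 0.499 RPKM under the knockout label and 56.5 and 0.163 RPKM in WT. No CSDS library showed this, and both genes were picked with their values in view. The label of the tissue was met by neuronal markers of the hippocampus, whose 12 genes summed to 262 to 290 RPKM in the KO-labelled groups and 247 to 277 RPKM in the WT groups. Of 10 markers of peripheral myelin, 3 stayed under 0.1 RPKM in all 20 libraries, among them Pmp2 and Foxd3. The list as a whole was not absent, since it summed to 15.9 to 18.6 RPKM in the KO-labelled groups and 15.6 to 20.1 RPKM in the WT groups.

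Promoters are shown for genes called after CSDS in either genotype that the RefSeq table held (GRCm38.p6, 250 bases before to 50 after the start), because the proteins that switch on myelin genes bind there. Of the 30 members, 21 had a promoter in that table. Ndrg1, Cryab, Trf and Myrf had none. Each sequence reads 5′ to 3′ on the gene's own strand. Capitals mark matches on either strand to ACAAAG or ACAATG, the cores bound by SOX proteins such as SOX10, or to CTGGCAC, a motif of MYRF.
Ermn promoter, chr2:58052815-58053114, minus strand: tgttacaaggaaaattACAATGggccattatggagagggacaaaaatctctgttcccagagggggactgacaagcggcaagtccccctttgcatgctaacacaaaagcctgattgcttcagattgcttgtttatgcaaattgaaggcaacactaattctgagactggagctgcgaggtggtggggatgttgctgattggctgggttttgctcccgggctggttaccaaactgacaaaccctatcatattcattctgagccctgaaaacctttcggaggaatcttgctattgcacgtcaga
Mobp promoter, chr9:120149492-120149791, plus strand: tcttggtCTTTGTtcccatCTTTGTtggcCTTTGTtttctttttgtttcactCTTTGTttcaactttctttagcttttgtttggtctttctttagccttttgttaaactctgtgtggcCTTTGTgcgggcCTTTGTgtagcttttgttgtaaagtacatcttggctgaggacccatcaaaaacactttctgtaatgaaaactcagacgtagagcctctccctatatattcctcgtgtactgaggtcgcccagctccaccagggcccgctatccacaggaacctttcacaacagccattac
Hapln2 promoter, chr3:88027462-88027761, minus strand: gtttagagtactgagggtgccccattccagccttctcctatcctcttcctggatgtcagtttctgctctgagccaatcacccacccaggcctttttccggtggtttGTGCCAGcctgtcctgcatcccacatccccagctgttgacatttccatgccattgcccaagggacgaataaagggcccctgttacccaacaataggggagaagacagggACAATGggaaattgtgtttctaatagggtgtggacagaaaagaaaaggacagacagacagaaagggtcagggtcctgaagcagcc
Gjc3 promoter, chr5:137963049-137963348, minus strand: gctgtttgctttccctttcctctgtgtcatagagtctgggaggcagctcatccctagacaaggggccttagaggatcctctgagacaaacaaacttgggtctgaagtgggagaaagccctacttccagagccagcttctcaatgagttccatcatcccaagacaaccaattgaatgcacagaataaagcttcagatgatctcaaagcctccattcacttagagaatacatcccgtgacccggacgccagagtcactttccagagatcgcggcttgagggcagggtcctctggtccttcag
Ugt8a promoter, chr3:125938603-125938902, minus strand: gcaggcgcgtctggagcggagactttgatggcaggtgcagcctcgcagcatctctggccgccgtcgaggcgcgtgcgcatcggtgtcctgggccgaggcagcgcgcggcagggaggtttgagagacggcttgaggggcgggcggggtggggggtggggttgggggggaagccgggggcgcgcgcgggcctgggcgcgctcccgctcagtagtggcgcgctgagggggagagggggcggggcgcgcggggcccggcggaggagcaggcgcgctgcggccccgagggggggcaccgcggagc
The Mobp window held 6 matches to ACAAAG, all on its reverse strand. Ermn held 1 match to ACAATG. Hapln2 held 1 match to ACAATG and 1 to CTGGCAC, while Gjc3 and Ugt8a held none of the 3 words. The 21 members had 29 promoters in the table, of which 12 held a SOX core and 5 held CTGGCAC. Over all 32851 promoters of the same length, 28.6% held a SOX core and 5.01% held CTGGCAC. A match describes the letters only, since short words occur in many promoters.

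The 30 genes spanned a wide range of levels. Mbp, whose protein glues the inner faces of the compact membrane, had the highest mean over the 20 libraries, 246 RPKM. It lay above 99.2% of genes with a mean of at least 0.5 RPKM. Mobp, a small basic protein of compact myelin, followed at 119 RPKM. Next came Car2 at 90.5, Cnp at 88.2, Mal at 83.8 and Trf at 77.2 RPKM. Enpp6, a choline phosphodiesterase of newly forming oligodendrocytes, was lowest at 1.36 RPKM, below Aspa at 3.16 RPKM. Between neighbours in this order the 20-library ranges failed to overlap at 3 steps, namely Mbp over Mobp, Cryab over Bcas1 and Aspa over Enpp6. Mobp over Car2, Mog over Tspan2, Sox10 over Myrf and Nkx6-2 over Aspa overlapped in range, yet the first gene was the higher in all 20 libraries. Elsewhere the neighbours changed places between libraries.

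**Figure D1:**
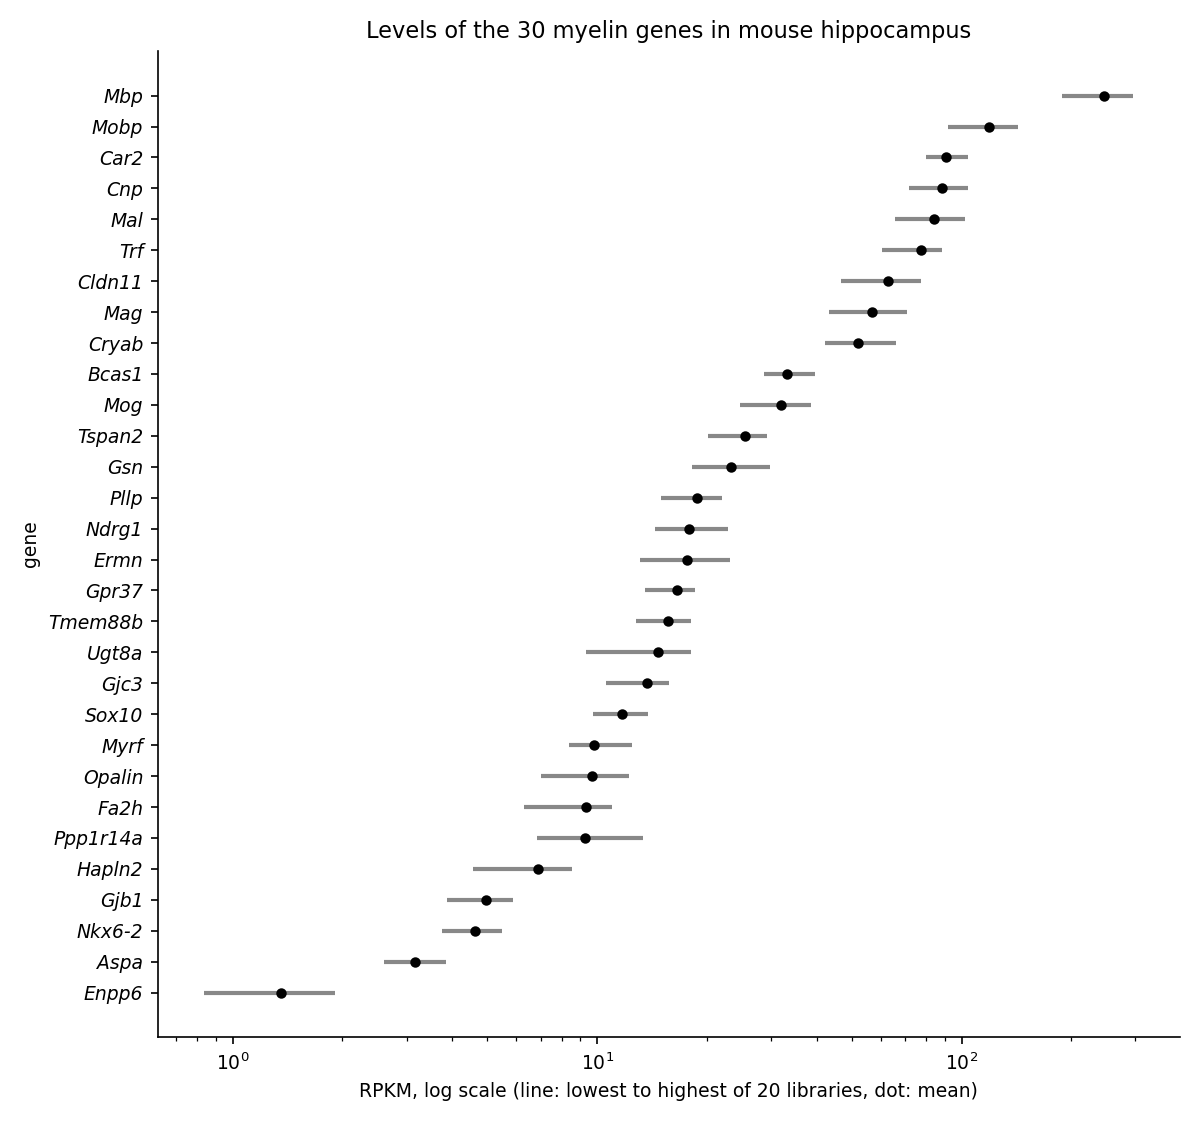
Level of the 30 genes in RPKM on a log axis, with a line from the lowest to the highest of 20 libraries and a dot at the mean. Mbp stands alone at the top with 246 RPKM and Enpp6 at the bottom with 1.36 RPKM, while most neighbours overlap.

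The first comparison asked what CSDS did in WT hippocampus. Of the 30 genes, 8 were lower after CSDS (26.7%) and 0 were higher, where 22.4% of the 18274 genes tested were called in either direction, 12.5% of them as lower and 9.88% as higher. The median change of the 30 was -0.11, against -0.002 over all genes, and 22 of the 30 changes were negative. Counted by libraries alone, 5 of the 30 had every CSDS library under every control library, where 9.65% of all genes did so, and 0 had every CSDS library above every control library, where 7.49% of all genes did. An unadjusted p under 0.05 was reached by 11 of the 30. The last of these 11, Mal, ranked 5832 among the 18274 genes, so at least that many genes reached it. Opalin, the next member, was above 0.05 and ranked 7102, so fewer than 7102 genes reached it. Within these bounds, 11 of 30 is not shown to be more than all genes give. With WT 9B added to CSDS, as its treatment field reads, only Cryab was called, at -0.32 (limma, adjusted p = 0.0445), and 6.79% of all genes were. With it added to control, as its title reads, the same 8 were lower and Gsn was higher, at 0.30 (limma, adjusted p = 0.0461), and 25.9% of all genes were called. In bulk tissue, fewer oligodendrocytes and less RNA per oligodendrocyte cannot be told apart.

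Among the structural proteins of the sheath, 2 of 12 fell, where 12.5% of all genes did. Ermn encodes ermin, an actin-binding protein of the outer loops that appears late in maturation. Its values were 13.7, 14.9, 13.1, 14.7 and 13.3 RPKM in WT CSDS libraries 1 to 5, against 23.2, 22.2, 18.5, 21.7 and 16.4 RPKM in WT control libraries 6 to 10. The groups did not overlap, and the change of -0.52 ± 0.09 was called (limma, adjusted p = 0.00281). Mobp stood at 95.8, 116, 102, 116 and 91.8 RPKM in WT CSDS, against 143, 129, 109, 138 and 123 RPKM in WT control. Control 8 lay under 2 CSDS libraries, so the groups overlapped, with a change of -0.30 ± 0.09 (limma, adjusted p = 0.0319). That call was lost without any of 6 single libraries, CSDS 1, 3 or 5 or control 6, 7 or 9, where limma's adjusted p was 0.064 to 0.0736.

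The best-known sheath proteins did not pass the test. Mbp was 198, 249, 229, 259 and 189 RPKM in WT CSDS and 296, 267, 234, 285 and 219 RPKM in WT control, a change of -0.21 ± 0.11 (limma, adjusted p = 0.18). Cnp, an enzyme that keeps cytoplasmic channels open within the sheath, was 74.9, 97.7, 91.6, 104 and 71.6 RPKM in WT CSDS, against 94.1, 90.5, 77.8, 90.5 and 73.6 RPKM in WT control. Mag, an adhesion protein of the face next to the axon, was 44.9, 60.0, 58.0, 65.3 and 43.3 RPKM in WT CSDS, against 61.7, 55.2, 49.8, 57.3 and 45.6 RPKM in WT control. In all 3 genes CSDS libraries 1 and 5 were the lowest of the 5, and the groups overlapped. Mog, on the outermost face of the sheath, was 26.8, 35.2, 30.8, 38.4 and 24.6 RPKM in WT CSDS, against 32.7, 31.8, 27.8, 32.6 and 27.1 RPKM in WT control. The changes of Cnp, Mag and Mog were 0.04 ± 0.11, 0.00 ± 0.12 and 0.02 ± 0.12, with 95% intervals reaching from -0.27 to 0.28 over the 3 genes. Changes up to that size are therefore not shown to be absent.

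The other structural genes stayed on the uncalled side as well. Mal, a proteolipid of myelin rafts, changed by -0.26 ± 0.11 (limma, adjusted p = 0.104). Cldn11, which forms the tight junction strands of central myelin, changed by -0.11 ± 0.15. Opalin and the proteolipid Pllp were the highest of the 12, at 0.20 ± 0.09 and 0.14 ± 0.07. Tspan2, a tetraspanin, stood at 0.00 ± 0.11 and Tmem88b at -0.14 ± 0.07. Of the exon bases of Pllp, 54.2% lie over the antisense gene Gm45767, and the libraries keep no strand, so its value is uncertain.

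Lipid synthesis and gap junctions gave a single call in WT, as lower, where 12.5% of all genes were called lower. Gjc3, which encodes connexin 29 of oligodendrocytes, was 10.6, 13.4, 12.3, 13.3 and 10.6 RPKM in WT CSDS, against 15.2, 14.4, 13.7, 15.5 and 13.1 RPKM in WT control. Only control 10 lay inside the CSDS range, and the change was -0.25 ± 0.08 (limma, adjusted p = 0.0364). Without any of CSDS 1, 3 or 5 or control 6, 7 or 9 the call was lost, at limma's adjusted p of 0.0612 to 0.0824. Gjb1, connexin 32, changed by -0.08 ± 0.09. Ugt8a, the galactosyltransferase that makes galactosylceramide, was 9.56, 14.7, 12.2, 15.4 and 9.31 RPKM in WT CSDS, against 17.6, 18.1, 15.8, 16.6 and 12.1 RPKM in WT control. Its change of -0.40 ± 0.15 missed the threshold (limma, adjusted p = 0.0898), and passed it without control 10, at -0.49 and adjusted p = 0.0384. Fa2h, which hydroxylates the fatty acids of those lipids, changed by -0.15 ± 0.15, and Aspa, which breaks down N-acetylaspartate, by -0.03 ± 0.06.

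Of the 3 transcription factors, 1 fell, where 12.5% of all genes did, and 3 genes are too few to set against that share. Myrf, needed to start and maintain myelin gene expression, was 8.62, 8.63, 8.80, 9.16 and 8.77 RPKM in WT CSDS, against 12.5, 10.8, 10.8, 11.6 and 9.36 RPKM in WT control. No library overlapped, although control 10 came close to the CSDS group, and the change was -0.30 ± 0.06 (limma, adjusted p = 0.00704). Sox10, which acts upstream of Myrf through the whole lineage, changed by -0.15 ± 0.08, and Nkx6-2 by 0.04 ± 0.06. Neither passed the test (limma, adjusted p = 0.226 and 0.69).

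The smallest p-values belonged to genes outside the sheath itself. Ndrg1, a cytoplasmic protein whose loss causes a demyelinating neuropathy in humans, was 14.4, 14.5, 16.4, 14.9 and 14.7 RPKM in WT CSDS, against 22.9, 21.3, 19.7, 22.9 and 19.2 RPKM in WT control. The gap between the groups was wider than the spread inside the CSDS group, and the change was -0.48 ± 0.06 (limma, adjusted p = 0.000573). Of its exon bases, 6.4% lie over the antisense gene Gm17035, which had a mean of 51.0 RPKM, so reads of the pair cannot be told apart there. Cryab, a small heat shock protein, was 43.5, 45.4, 46.7, 49.4 and 44.2 RPKM in WT CSDS, against 58.0, 65.9, 60.7, 61.6 and 54.9 RPKM in WT control. Again no library overlapped, with a change of -0.39 ± 0.05 (limma, adjusted p = 0.000912).

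Trf and Hapln2 completed the 8 genes. Trf encodes transferrin, the iron carrier that oligodendrocytes make in large amounts. It was 67.5, 60.5, 63.5, 65.6 and 72.5 RPKM in WT CSDS, against 76.3, 78.6, 77.9, 74.4 and 82.1 RPKM in WT control. The groups did not overlap and the change was -0.24 ± 0.05 (limma, adjusted p = 0.00514). The gene model Gm20425 on the same strand covers 63.5% of the exon bases of Trf and had a mean of 86.8 RPKM, so the split of reads between them is uncertain. Hapln2, a link protein of the matrix at nodes of Ranvier, was 6.50, 4.56, 5.19, 4.94 and 6.77 RPKM in WT CSDS, against 8.28, 7.59, 7.37, 8.51 and 6.48 RPKM in WT control. Its lowest CSDS libraries were 2, 3 and 4, and only control 10 fell inside the CSDS range, with a change of -0.43 ± 0.11 (limma, adjusted p = 0.0184).

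The remaining members of WT were uncalled. Gsn, an actin-severing protein, had the highest change of the 30, 0.28 ± 0.11 (limma, adjusted p = 0.0873), and passed without CSDS 1, at 0.36 and adjusted p = 0.0288. Car2, a carbonic anhydrase, changed by -0.08 ± 0.04, Bcas1 by -0.11 ± 0.07 and Enpp6 by -0.09 ± 0.13. Bcas1 and Enpp6 mark oligodendrocytes that are starting to myelinate. The receptor Gpr37 stood at 0.00 ± 0.07 and Ppp1r14a, an inhibitor of myosin phosphatase, at 0.11 ± 0.13. Without control 10 the count of members lower in WT became 12, the 8 above with Ugt8a, Sox10, Tmem88b and Car2. The share of all genes called in that fit is not given here, so the rise is not shown to be particular to these genes.

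**Figure D2:**
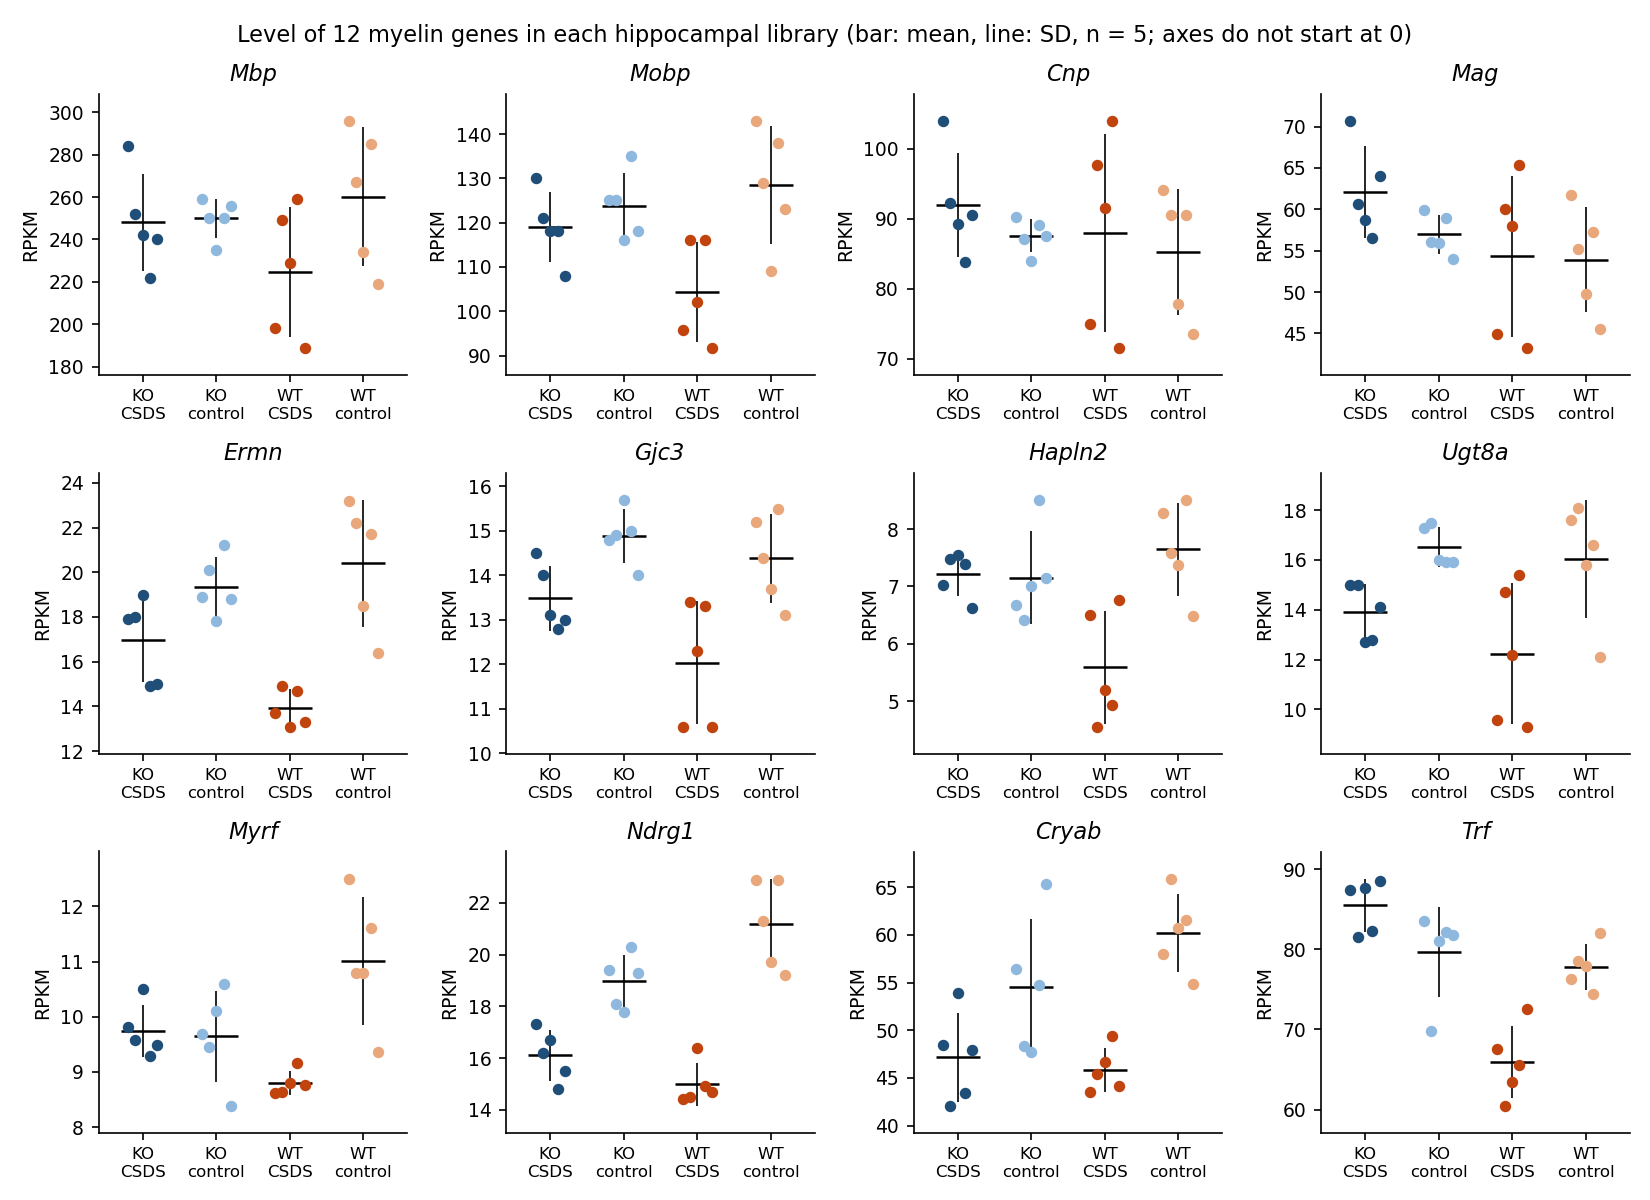
RPKM of 12 genes in each library, by group, with KO-labelled CSDS and control left of WT CSDS and control. Points are libraries, the bar is the mean and the vertical line the SD (n = 5), and the axes do not start at 0. Ermn, Myrf, Ndrg1, Cryab and Trf show no overlap between WT CSDS and WT control, while Mag and Cnp overlap fully.

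The second comparison put the same question to mice labelled knockout. Of the 30 genes, 3 were lower after CSDS (10.0%) and 0 were higher, where 15.0% of 18259 genes were called, 8.88% as lower and 6.17% as higher. The share of members called lower was thus near that of all genes. The median change of the 30 was -0.02, against -0.007 over all genes, and 7 of the 30 had an unadjusted p under 0.05. The last of these 7, Cryab, ranked 5432 among the 18259 genes, so at least that many genes reached it. With 18259 genes tested, 7 of 30 is thus a smaller share than that of all genes. Libraries separated fully for 2 members, Ugt8a and Ndrg1, where 7.46% of all genes were lower without overlap, and 0 were higher without overlap, where 5.45% of all genes were. With 10B and 11 added to CSDS, as their treatment field reads, limma called 0 members and 0.784% of all genes. With both added to control, as their title reads, 5 were lower, Ermn and Mal beside the 3, and 17.7% of all genes were called.

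Ndrg1 was 17.3, 16.2, 16.7, 14.8 and 15.5 RPKM in KO-labelled CSDS, against 19.4, 18.1, 17.8, 20.3 and 19.3 RPKM in KO-labelled control. Its change was -0.23 ± 0.05 (limma, adjusted p = 0.012). Ugt8a was 15.0, 15.0, 12.7, 12.8 and 14.1 RPKM in KO-labelled CSDS, against 17.3, 17.5, 16.0, 15.9 and 15.9 RPKM in KO-labelled control. All CSDS libraries again lay below all controls, with a change of -0.24 ± 0.05 (limma, adjusted p = 0.0159). Gjc3 was 14.5, 14.0, 13.1, 12.8 and 13.0 RPKM in KO-labelled CSDS, against 14.8, 14.9, 15.7, 15.0 and 14.0 RPKM in KO-labelled control. CSDS 1 lay above control 10, so the groups overlapped, and the change of -0.14 ± 0.04 was at the edge of the threshold (limma, adjusted p = 0.0487). Leaving out any of 8 of the 10 libraries, all but CSDS 1 and control 10, raised limma's adjusted p for Gjc3 to 0.059 to 0.113.

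The main sheath proteins were not called between the KO-labelled groups. Mbp was 284, 252, 242, 222 and 240 RPKM in KO-labelled CSDS, against 259, 250, 235, 250 and 256 RPKM in KO-labelled control, a change of -0.02 ± 0.06. Mobp was 130, 121, 118, 118 and 108 RPKM in KO-labelled CSDS and 125, 125, 116, 135 and 118 RPKM in KO-labelled control, a change of -0.06 ± 0.05. The groups overlapped for both genes. Cnp was 104, 92.2, 89.2, 83.8 and 90.6 RPKM in KO-labelled CSDS, against 90.2, 87.1, 84.0, 89.1 and 87.5 RPKM in KO-labelled control. Mag was 70.7, 60.7, 58.7, 56.5 and 64.0 RPKM in KO-labelled CSDS, against 59.9, 56.1, 55.9, 58.9 and 54.0 RPKM in KO-labelled control. Mog was 38.6, 34.2, 30.9, 33.2 and 34.7 RPKM in KO-labelled CSDS, against 31.3, 33.5, 30.6, 33.1 and 32.6 RPKM in KO-labelled control. CSDS 1 was the highest KO-labelled library for Cnp, Mag and Mog, whose changes were 0.07 ± 0.05, 0.12 ± 0.06 and 0.09 ± 0.05, none of them called.

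Several genes that fell in WT did not pass the test under the knockout label. Ermn was 17.9, 18.0, 19.0, 14.9 and 15.0 RPKM in KO-labelled CSDS, against 18.9, 20.1, 17.8, 21.2 and 18.8 RPKM in KO-labelled control, a change of -0.19 ± 0.07 (limma, adjusted p = 0.112). Cryab was 48.5, 42.1, 53.9, 43.4 and 47.9 RPKM in KO-labelled CSDS, against 56.4, 48.4, 47.7, 54.8 and 65.3 RPKM in KO-labelled control, a change of -0.20 ± 0.09 (limma, adjusted p = 0.16). The groups of both genes overlapped. Myrf was 9.82, 9.58, 10.5, 9.29 and 9.49 RPKM in KO-labelled CSDS, against 9.69, 9.45, 10.1, 10.6 and 8.39 RPKM in KO-labelled control, a change of 0.02 ± 0.06. Hapln2 was 7.03, 7.47, 7.54, 7.39 and 6.62 RPKM in KO-labelled CSDS, against 6.68, 6.42, 7.00, 8.51 and 7.14 RPKM in KO-labelled control, a change of 0.02 ± 0.07. Trf, with 87.4, 81.5, 87.7, 82.3 and 88.6 RPKM in KO-labelled CSDS against 83.5, 69.8, 81.0, 82.2 and 81.8 RPKM in KO-labelled control, changed by 0.10 ± 0.05 (limma, adjusted p = 0.192). The remaining members had changes between -0.16 (Ppp1r14a) and 0.15 (Opalin), none called.

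Ndrg1 and Gjc3 were the 2 genes called lower in both genotypes, in comparisons with no library in common. They are 2 of the 8 called in WT and 2 of the 3 called under the knockout label. Over all genes, 12.5% were called lower in WT and 8.88% under the knockout label. The share called lower in both was not computed, so 2 is not shown to be more than all genes give. The Gjc3 call under the knockout label was lost without any of 8 single libraries. The authors' deposited table, whose log2 fold changes run control over CSDS, gave 12 members a false discovery rate under 0.05 in WT, 11 lower after CSDS and 1, Gsn, higher, where 21.0% of 17840 genes passed. It held the 8 genes above with Mbp, Mal and Ugt8a. For the knockout label the authors' deposited table had 5 such members, Ermn, Gjc3, Ndrg1 and Cryab lower and Trf higher, where 17.1% of genes passed. The authors' control groups contain the 3 libraries of conflicting label, so these are not the same samples.

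**Figure D3:**
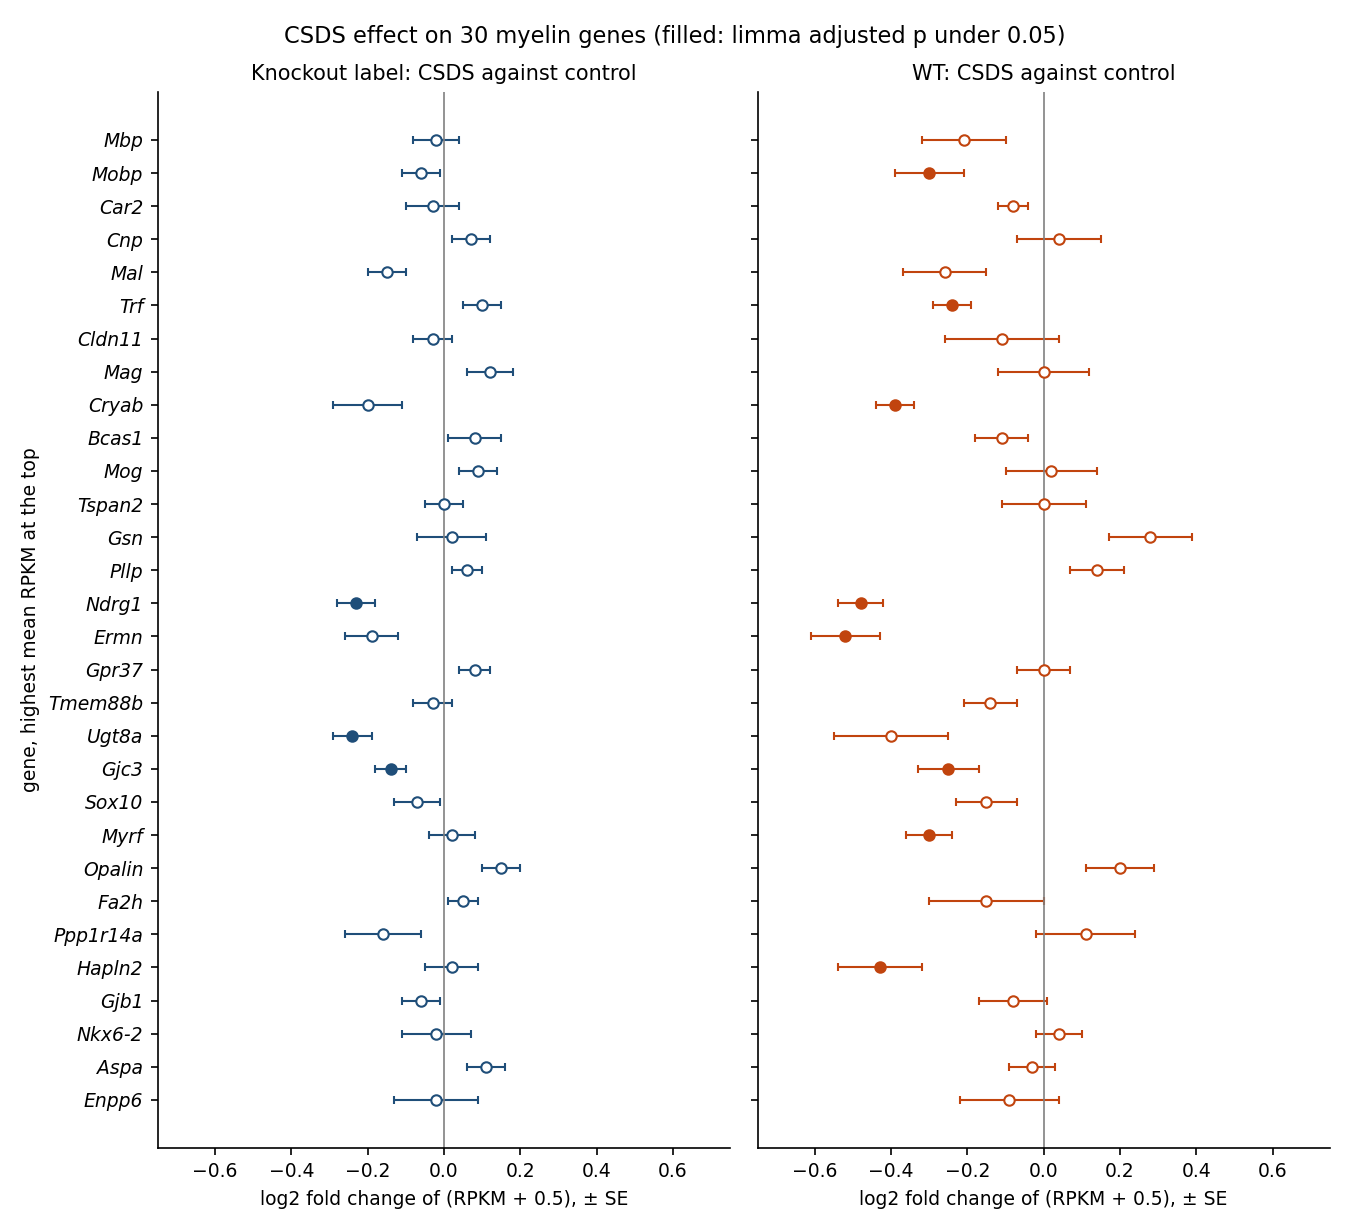
Change of each of the 30 genes after CSDS as the log2 fold change of RPKM + 0.5 with its SE, under the knockout label on the left and in WT on the right, with genes in order of mean RPKM. Filled points are the 3 genes called under the knockout label and the 8 called in WT, all of them to the left of 0.

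Whether the CSDS effect differed by genotype was tested directly over the 20 libraries. None of the 30 members was called by limma, where 0.148% of 18263 genes were (0.0602% higher and 0.0876% lower). An unadjusted p under 0.05 was reached by 6 members, and the last of them, Mobp, ranked 1590 among all genes tested. Bcas1, the next member, was above 0.05 and ranked 2756. At least 1590 and fewer than 2756 of the 18263 genes were thus under 0.05. The largest differences, KO label minus WT, were 0.44 ± 0.13 for Hapln2 (limma, adjusted p = 0.188), 0.34 ± 0.07 for Trf (adjusted p = 0.0532) and 0.33 ± 0.12 for Ermn (adjusted p = 0.28). Myrf differed by 0.32 ± 0.09 (limma, adjusted p = 0.143) and Ndrg1 by 0.25 ± 0.08 (adjusted p = 0.191). The difference for Trf passed the threshold when WT control 10, KO-labelled control 7 or WT CSDS 5 was left out, at limma's adjusted p of 0.0319, 0.0479 and 0.0246, and that for Myrf passed without WT control 10, at 0.0212. The effects on single genes in WT are thus not shown to be absent under the knockout label.

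Between genotypes at rest, 0 of the 30 members were called by limma, where 1.14% of 18297 genes were (0.809% higher and 0.333% lower). An unadjusted p under 0.05 was reached by 7 members, and the last of them, Gsn, ranked 2656 among all genes tested. Gjb1, the next member, was above 0.05 and ranked 2993. At least 2656 and fewer than 2993 of the 18297 genes were thus under 0.05. Opalin was nearest to a call. It had 9.77, 10.8, 10.1, 9.91 and 9.57 RPKM in KO-labelled control against 8.97, 8.46, 7.41, 8.59 and 7.01 RPKM in WT control. Its groups did not overlap and its difference was 0.30 ± 0.06 (limma, adjusted p = 0.0597). Pllp was also higher in every KO-labelled control, at 0.22 ± 0.06 (limma, adjusted p = 0.0956). These were the 2 members of the 30 without overlap, where 3.19% of all genes were higher without overlap. No member was lower without overlap, where 1.75% of all genes were.

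After CSDS, 1 of the 30 members (3.33%) differed between genotypes, where 1.91% of 18225 genes were called, 1.10% as higher and 0.818% as lower. Trf was higher under the knockout label by 0.37 ± 0.05 (limma, adjusted p = 0.00171), with 81.5 to 88.6 RPKM in KO-labelled CSDS and 60.5 to 72.5 RPKM in WT CSDS. Its call was lost when the conflicting libraries were added as their treatment field reads, at 0.27 (limma, adjusted p = 0.0572). Aspa, Myrf and Tmem88b also had every KO-labelled CSDS library above every WT CSDS library without passing the test, with differences of 0.18 ± 0.05, 0.14 ± 0.03 and 0.25 ± 0.06 (limma, adjusted p = 0.0774, 0.0687 and 0.0507). That made 4 members higher without overlap, where 2.98% of all genes were, and 0 lower, where 2.50% were. The median difference of the 30 was 0.14, against 0.004 over all genes, and 12 had an unadjusted p under 0.05. The last of these 12, Gjb1, ranked 3000 among the 18225 genes. Ndrg1, the next member, was above 0.05 and ranked 3712. At least 3000 and fewer than 3712 of all genes were thus under 0.05. The members were chosen with earlier results known and vary together, so the count describes the list and does not test it.

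Many of the genes varied together from library to library within groups, while others did not. The mean log2 level of the 30 was 4.39 to 4.57 in KO-labelled CSDS and 4.45 to 4.52 in KO-labelled control, and 4.17 to 4.48 in WT CSDS and 4.28 to 4.57 in WT control. WT CSDS 5 and 1 were the lowest of all, at 4.17 and 4.20, with 0 and 1 of the 30 genes above their own median of 20 libraries. WT control 10 came next at 4.28, with 4 genes above their median. These 3 lay under the lowest KO-labelled library, CSDS 4 at 4.39, as did WT CSDS 3 at 4.36 and WT control 8 at 4.38.

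After subtracting group means, 15 of the 30 genes correlated above 0.8 with the mean of the other 29 over the 20 libraries, which they share. Mbp and Cnp reached r = 0.97 and Mag 0.94, and the median over 435 pairs was 0.52. The share of all genes above 0.8 was not computed. At the other end were Trf with -0.36, Hapln2 with -0.21, Gsn with 0.24, and Car2 and Nkx6-2 with 0.26. Of the 8 genes called in WT, only Gjc3 (0.86) was among the 15, while Mobp had 0.79, Ermn 0.69, Ndrg1 0.65, Myrf 0.50 and Cryab 0.42. Of the 3 genes called under the knockout label, Gjc3 and Ugt8a (0.86 each) were among the 15 and Ndrg1 was not.

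**Figure D4:**
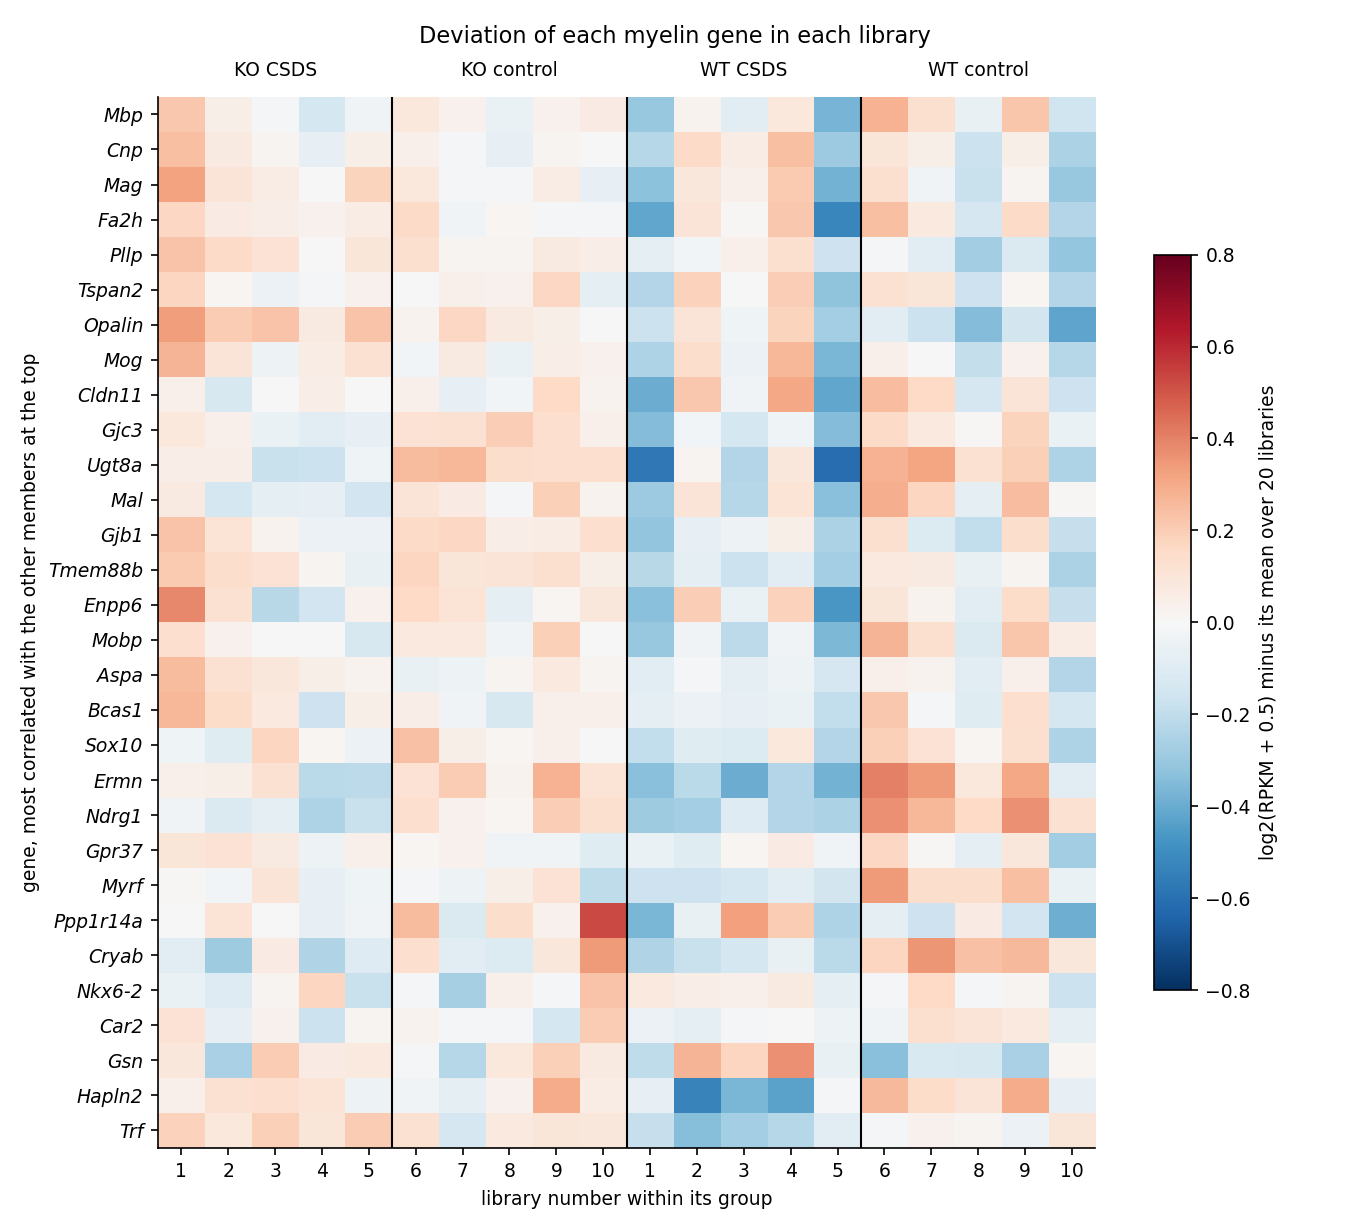
Deviation of log2(RPKM + 0.5) of each gene from its mean over 20 libraries, blue below and red above, with KO-labelled CSDS and control left of WT CSDS and control and genes ordered by their correlation with the other 29. WT CSDS 1 and 5 are blue for nearly all genes, and the rows of Ndrg1, Ermn, Myrf and Cryab are blue across WT CSDS.

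Each gene was also read relative to the mean of the 30 in its own library, which removes shifts common to all. In WT, Ermn, Ndrg1 and Gjc3 were lower after CSDS without overlap, by -0.39, -0.36 and -0.12 on the log2 scale, where 0.679% of all genes were lower on this measure. Opalin, Pllp and Cnp were higher without overlap, by 0.33, 0.27 and 0.16, where 3.40% of all genes were. Under the knockout label Ndrg1 (-0.21) and Ugt8a (-0.22) were lower and Mag (0.14) and Aspa (0.13) higher without overlap, against 3.69% and 3.99% of all genes. This measure forces some genes up when others go down and is given as a description. The mean of the 30 was itself lower after CSDS in WT, at 4.32 against 4.45, which pushes genes outside the list up. The shares over all genes on this measure are therefore not a like background for the members.

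Outside the members, the genes whose levels followed the mean of the 30 most closely were Prr18 (r = 0.93), Sirt2 (0.89), Grm4, Gna12, Papss1 and Qdpr (0.88 each), Desi1 (0.87) and Meis2 (0.86). The measure was Pearson's r over the 20 libraries after subtracting group means, among 16232 genes with a mean of at least 1 RPKM.

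Further genes of the mature oligodendrocyte were counted in the same fits. Of 52 tested in WT, 14 were lower and 1 was higher after CSDS, with a median change of -0.09. For this list and those that follow, the shares over all genes were 12.5% lower and 9.88% higher in WT, and 8.88% lower and 6.17% higher under the knockout label. The smallest p-values were those of Synj2 (-0.28 ± 0.03), Anln (-0.48 ± 0.07), Cntn2 (-0.35 ± 0.05) and Daam2 (-0.35 ± 0.06), with limma's adjusted p of 0.000353 to 0.00245. Anln encodes anillin, a scaffold of septins in myelin, and Cntn2 a contactin beside the node of Ranvier. In the KO-labelled comparison 2 of 53 were lower, Anln (-0.29 ± 0.04) and Daam2 (-0.18 ± 0.04), and 3 were higher, among them Ttyh2 (0.23 ± 0.04) and Tubb4a (0.32 ± 0.04), a tubulin of oligodendrocytes and neurons. The median change there was 0.00.

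Genes of the axonal side were counted with them. Of 15 partners at nodes and paranodes, 6 were lower and 1 higher in WT, among them the potassium channel Kcna2 (-0.26 ± 0.04), Cntn2, which is in both lists, and the sodium channel Scn8a (-0.15 ± 0.03). In the KO-labelled comparison 0 were lower and 1 was higher, the adhesion protein Cntn1 (0.14 ± 0.03). Of 17 genes of sphingolipid and galactolipid metabolism, 1 was lower in WT, Abca2 (-0.13 ± 0.03), and 2 were higher, among them Arsa (0.08 ± 0.03).

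Upstream in the lineage the calls ran in both directions. Among 23 regulators, 7 were lower and 1 higher in WT, with the smallest p-values for Id2 (-0.22 ± 0.04), Hes1 (-0.33 ± 0.06), Hdac1 (0.29 ± 0.07) and Yy1 (-0.17 ± 0.05). Id2 and Hes1 hold precursors back from maturing. For the KO-labelled groups 4 were lower, Hes1 (-0.49 ± 0.08), Yy1 (-0.23 ± 0.05), Id4 (-0.25 ± 0.06) and Zfp24 (-0.13 ± 0.04). Of 13 markers of oligodendrocyte precursors 4 were higher in WT, Ptprz1 (0.19 ± 0.02), Pdgfra (0.32 ± 0.06), Cspg4 (0.16 ± 0.04) and Vcan (0.15 ± 0.04), and 1 was lower. Between the KO-labelled groups 2 were higher, Cacng4 (0.21 ± 0.04) and Cspg4 (0.21 ± 0.06). Of 10 markers of newly formed oligodendrocytes, Rap2a and Parvb were lower in both genotypes and Itpr2 was higher in WT.

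Markers of other cells moved beside these results, and their part in them was not tested. Red blood cell genes summed to 559 to 2807 RPKM in WT CSDS and 206 to 297 RPKM in WT control, and all 5 were called higher. The 10 choroid plexus genes summed to 2908 to 3753 RPKM in WT CSDS and 23.0 to 4922 RPKM in WT control, with 0 called by limma and 0 at an unadjusted p under 0.05. The 10 meningeal genes summed to 36.5 to 66.6 RPKM in KO-labelled CSDS and 62.2 to 115 RPKM in KO-labelled control, with 8 called lower. The 10 endothelial genes summed to 70.4 to 76.7 RPKM in KO-labelled CSDS and 83.7 to 96.6 RPKM in KO-labelled control without overlap, with 5 called lower and 1 higher. The 12 microglial genes summed to 177 to 205 RPKM in WT CSDS and 156 to 188 RPKM in WT control, with 3 called higher. Activity-regulated genes were lower after CSDS, 6 of 11 under the knockout label and 9 of 11 in WT. The 12 thalamic and habenular genes summed to 48.7 to 67.4 RPKM in KO-labelled CSDS and 40.1 to 47.5 in KO-labelled control, and 49.0 to 59.3 in WT CSDS and 46.6 to 63.0 in WT control.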

How the data were processed

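Poly(A) RNA of mouse hippocampi was sequenced as 75 bp single-end reads from libraries that keep no strand, per the labels' protocols, and aligned with STAR to mm10, per the submitters' processing notes. The sources used here do not give the annotation or the counting tool. The authors deposited RPKM per library in a table for each genotype. The authors' comparisons from edgeR give, per the file headers, a log2 fold change, a test score (LR), a p-value and an FDR for each gene.

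Values were fitted as log2(RPKM + 0.5) with limma 3.58.1 in R 4.3.3 (trended eBayes), for genes with a mean of at least 0.5 RPKM over the libraries fitted, and adjusted over all genes tested. Contrasts of genotypes join both tables, which hold the same 39017 genes. Between the tables, symbols of 26 genes differ, some read as dates by a spreadsheet, and the other table's symbols were used. The code was tested on simulated data. Depth was estimated from the steps in RPKM of single-exon genes. With it, 92.5 to 93.9% of the values used lay within 0.05 of a whole read. Gene coordinates matched GENCODE M21 for 96.3% of genes.

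The members and lists were chosen with earlier results of these data known. Values per library are given for Mbp, Mog, Mag, Mobp, Cnp and members called in a comparison, and of other lists at most the 4 called genes of smallest p. Of the genes most like the members, 1 has no symbol and 1 is not reported here. Alternatives covered the pseudocount, the filter, centring, robust and weighted fits, each library left out, the conflicting libraries, and a replicate block.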

Additional observations from a re-analysis of the deposited data

Results flagged for a closer look

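In groups of 5, the lowest or highest library was tested for its gap to the others by Dixon's criterion, which chance meets in about 1 of 20 groups. Of 120 groups, 7 met it. Fa2h was 10.4 RPKM in KO-labelled CSDS 1, where the others had 9.44 to 9.67, and 10.3 RPKM in KO-labelled control 6, where the others had 9.02 to 9.33. Sox10 was 13.8 RPKM in KO-labelled control 6, against 11.7 to 12.1 in the others. Trf was 69.8 RPKM in KO-labelled control 7, against 81.0 to 83.5 in the others. In WT CSDS 5, Nkx6-2 was 4.34 RPKM and Bcas1 28.7 RPKM, under the 4.76 to 4.88 and 31.3 to 32.0 RPKM of the others. Ndrg1 was 16.4 RPKM in WT CSDS 3, above the 14.4 to 14.9 of the others, and still below every WT control.

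Trf is listed because every KO-labelled CSDS library was above the mean of its controls and every WT CSDS library was below the mean of its controls. Among the libraries compared, the KO-labelled side rests on control 7, the low library named above. KO-labelled 10B and 11, which stand outside the comparisons, had 75.4 and 70.2 RPKM, under every KO-labelled CSDS library. The change under the knockout label was 0.10 ± 0.05 and was not called (limma, adjusted p = 0.192), and without control 7 it was 0.06 (adjusted p = 0.29). A rise of Trf in those mice is thus not shown by the libraries compared. The authors' deposited edgeR test, whose control group includes 10B and 11, had Trf higher after CSDS (FDR = 0.0156). Which label of 10B and 11 is right is not known. The difference of the 2 effects was 0.34 ± 0.07 on the log2 scale and missed the threshold (limma, adjusted p = 0.0532).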

How the results depend on the processing

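The reading of the 3 conflicting libraries mattered most. Added as their treatment field reads, 1 member was called in WT (Cryab), 0 under the knockout label by limma and 2 (Aspa and Opalin) between genotypes after CSDS. Added as their title reads, 5 were called under the knockout label, 1 for the difference of effects and 3 (Opalin, Pllp and Ppp1r14a) between genotypes at rest. For the difference of effects, centring on the median gave 1, array weights 1, and leaving out control 10 of both genotypes 2 (Trf and Myrf). Between genotypes at rest, a minimum of 2 RPKM gave 1 and array weights 1, both Opalin. After CSDS the minimum of 2 RPKM, robust eBayes and array weights each gave 2 (Trf and Tmem88b). Without single libraries the counts were 6 to 12 in WT, 2 to 4 under the knockout label, 0 to 2 for the difference, 0 at rest and 1 to 2 after CSDS. The shares of all genes called without single libraries are not given here, so these counts do not show a trait of the members. No called change reversed its sign in these settings.

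Centring the libraries or dropping the filter ended the calls of Mobp and Gjc3 in WT, at limma's adjusted p of 0.0512 to 0.0634, and that of Gjc3 under the knockout label, at 0.0693 to 0.108. Same-numbered libraries of the 2 genotypes correlated at -0.11 to 0.42 in controls and 0.02 to 0.08 after CSDS. In each condition 3 of 5 KO-labelled libraries correlated best with the WT library of their own number. The numbers were not taken as pairs in the main fits, and what libraries of one number may share was not tested. With a replicate block, 0 members were called for the difference, 0 at rest and 1 after CSDS. Depth per library is an estimate.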

Other observations

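The 3 libraries of conflicting label have a control title and a CSDS treatment field, and no group was inferred for them. WT 9B had 22.6 RPKM of Ndrg1, 20.8 of Ermn, 61.6 of Cryab, 78.2 of Trf and 11.9 of Myrf, each above every WT CSDS library and inside the WT control range. KO-labelled 10B and 11 had 19.8 and 19.0 RPKM of Ndrg1 and 16.4 and 18.1 RPKM of Ugt8a, above every KO-labelled CSDS library. For Trf they had 75.4 and 70.2 RPKM, under every KO-labelled CSDS library and inside the KO-labelled control range. Their Gjc3, 17.8 and 18.1 RPKM, and their mean log2 level of the 30 genes, 4.63 and 4.62, were above all 20 libraries compared.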
